A study of Drosophila melanogaster with 14 samples.

Results

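Long inter-LADs shared by both stages are stretches of at least 10 kb on the arms of chromosomes 2 and 3 that held no lamina-associated domain (LAD) in either spermatogonia (SpG) or spermatocytes (SpCs) of the Drosophila testis. They were found by merging the LAD lists of both stages and taking the gaps between neighbouring merged LADs. Of the 6515 gaps on the autosomal arms, 1031 (15.8%) were 10 kb or longer. These 1031 long inter-LADs covered 25.3 Mb, or 26.3% of the 96.4 Mb between the first and the last LAD of the arms, and 66.3% of all gap length. The members were chosen by the LAD calls themselves, so their length, number and boundaries are given as a description without a test.

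The nuclear lamina (NL) is a protein meshwork under the inner nuclear membrane that is built of lamins, in Drosophila the B-type Lam Dm0 and the A-type Lam C. LADs are the parts of chromosomes that touch it, and they are generally poor in genes and carry silent or weakly transcribed chromatin. Inter-LADs lie deeper in the nucleus and are generally richer in active genes, among them the housekeeping genes that most cell types use.

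The study asked how contacts with the NL differ between dividing germline cells and cells that have switched on the meiotic and testis-specific programme. In DamID, a protein fused to the Dam methylase leaves adenine methylation in GATC sites that it touches, and Dam alone serves as the reference. SpG were represented by testes of adult bamdelta86/bamdelta86 males, in which germline cells stop before the spermatocyte stage, with nos-Cre and a pUAST-attB construct of hsp70, loxP-stop-loxP and either Dam-Lam or Dam. SpCs came from testes of 3rd instar larvae carrying pUAST-attB-LT3-Dam-Lam or pUAST-attB-LT3-Dam over bam-Gal4-VP16. Cre under the nos promoter acts in the germline from its earliest cells, and bam-Gal4-VP16 is active from late SpG into SpCs, so cell type, age, construct and driver differed together between the stages and cannot be told apart. Each stage had 2 Dam-Lam and 2 Dam libraries of pooled testes, which the authors merged, after finding their read counts closely correlated, before calling LADs. With 1 list per stage, the spread of LAD positions between replicates is not known here. RNA-seq compared testes of 3rd instar larvae with bam-Gal4-VP16 alone (control, 3 libraries) with those of larvae carrying UAS-LamDm0-RNAi over the same driver together with UAS-LamC-RNAi/+ (Lam-KD, 3 libraries), so that both groups carry the driver and only Lam-KD carries the RNAi transgenes.

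The RNA-seq libraries held between 5651958 and 7437110 expected reads assigned to genes. Levels are given as TPM, the share of a gene's transcripts in a library corrected for transcript length and scaled to a common total. Both RNAi targets were lower in every Lam-KD library: Lam was at 69.7 to 96.9 TPM in control and 14.9 to 16.7 TPM in Lam-KD testes. LamC was at 19.2 to 32.1 TPM in control and 7.08 to 9.36 TPM in Lam-KD testes. Control replicate 3 stood apart: when the counts of 2 libraries were compared over genes, the chi-square divided by its degrees of freedom was 11.9 and 12.5 for this library against the other controls, 5.13 between those, and 2.31 to 4.08 among the Lam-KD libraries. The 7 germline markers that were measured (bam, aly, can, sa, topi, comr and mia) summed to 277 to 367 TPM in control and 404 to 412 TPM in Lam-KD libraries. The groups did not overlap in this sum, but they did without sa, the most abundant of them, at 147 to 203 TPM in control and 199 to 215 TPM in Lam-KD. Taken singly, sa, comr and mia were higher in every Lam-KD library than in any control, while bam, aly, can and topi overlapped. For comr the values were 14.5 to 18.6 TPM in control and 19.8 to 23.3 TPM in Lam-KD, and for mia 17.8 to 23.2 and 28.1 to 29.4 TPM. The 3 markers of somatic cyst cells summed to 28.4 to 37.6 TPM in control and 37.8 to 41.8 TPM in Lam-KD libraries. These sums did not overlap either, nor did tj and zfh1 taken singly, while eya did. The 4 fat body markers were high in all 6 libraries, with sums of 3630 to 5437 TPM in control and 3256 to 5271 TPM in Lam-KD. No marker was at 0 in any library, none was a gene of the long inter-LADs described below, and the part of such cells in the RNA results was not tested. In whole testes, fewer cells of a type and less RNA per cell cannot be told apart.

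Long inter-LADs had a median length of 18.9 kb, with quartiles of 13.5 and 28.8 kb. Of the 1031, 476 were at least 20 kb, 74 at least 50 kb and 8 at least 100 kb long. At the threshold itself, 22 gaps measured 10.2 kb and were members, and 26 gaps measured 9.9 kb and were not. The 4 arms were much alike, with 253 members on 2L, 230 on 2R, 254 on 3L and 294 on 3R. Their share of the arm lay between 24.2% on 3R and 28.5% on 2R, and their median length between 18.6 kb on 2L and 19.7 kb on 2R. Chromosome X, which is outside the rule, held 228 gaps of this length with a median of 22.2 kb. They were 9.52% of its 2395 gaps, against 15.8% on the autosomal arms, and covered 28.2% of its span, against 26.3%.

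**Figure D1:**
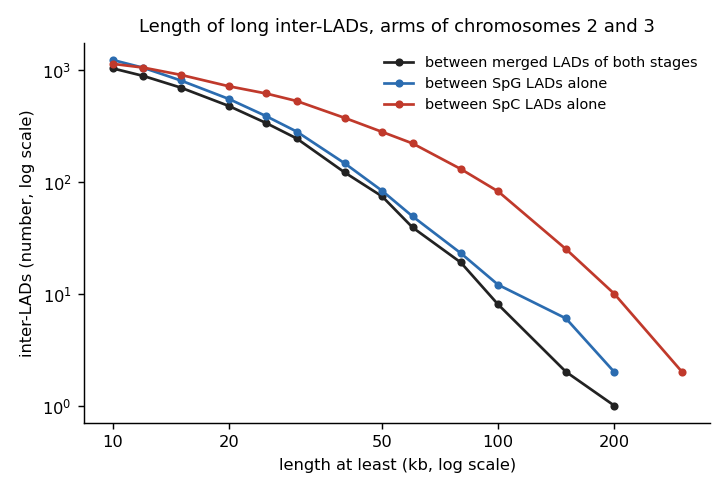
Number of inter-LADs (log scale) that reach at least the length on the x axis (kb, log scale) on the arms of chromosomes 2 and 3, for the gaps between merged LADs of both stages (black), SpG LADs alone (blue) and SpC LADs alone (red). The 3 counts are close at 10 kb (1031, 1226 and 1132), and the SpC curve runs above the others at greater lengths.

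The longest member, on 2L (dm3, chr2L:10221901-10449000), measured 227.1 kb and was the only one over 200 kb. The second was on 2R (chr2R:1418701-1569000, 150.3 kb) and the third on 3L (chr3L:23638501-23787000, 148.5 kb). On 2L, the next longest (chr2L:21412201-21549000) measured 136.8 kb. The longest of 3R (chr3R:5558701-5657400, 98.7 kb) had rank 10. Of the 10 longest, 7 lay in the 10% of their arm next to the centromere, and the other 3 were the first of 2L, the first of 3R and chr2R:4972501-5085000 (112.5 kb). With each arm cut into 10 equal parts counted from the centromere, long inter-LADs took 42.3% of part 1, 31.9% of part 2, between 22.9% and 28.4% of parts 3 to 8, 16.4% of part 9 and 15.3% of part 10. The arms differed in this. Part 1 took 52.1% on 2L, 55.2% on 2R and 40.9% on 3L, the highest share of any part of these arms, but on 3R it took 25.7%, below the 28.7% to 32.9% of parts 2 to 5. On 2L, part 6, which holds the longest member, took 39.1%. Over the 4 arms, part 1 held 22 of the 74 members of at least 50 kb. A bin of 300 bp in which the Dam library had no reads also gives no LAD, and the part of such bins in long gaps near the centromere was not tested.

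The LADs that closed the long inter-LADs were mostly those of SpG. Of the 2062 boundaries, 1553 (75.3%) were set by a LAD of SpG, 454 (22.0%) by a LAD of SpCs and 55 (2.67%) by both stages in the same bin. Boundaries of both stages lay within 1 bin of 300 bp of each other at 124 (6.01%) positions, within 3 bins at 242 (11.7%) and within 3 kb at 599 (29.0%), and they were over 10 kb apart at 1030. Where SpG set the boundary, the SpC LAD began a median of 16.2 kb further out (quartiles 5.1 and 41.1 kb). Where SpCs set it, the SpG LAD began a median of 2.7 kb further out (quartiles 1.2 and 6.3 kb). The arms did not differ much in this, with SpG setting between 73.2% of boundaries on 3L and 77.2% on 3R.

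By the same counts, the first bin beyond a boundary was LAD in SpG at 78.0% and in SpCs at 24.7% of boundaries, which the rule fixes. At 18 kb outside, the shares were 47.0% and 37.9%, while LADs covered 51.0% and 42.7% of the whole autosomal span. The SpG LADs next to members were short, with a median of 3.0 kb (1411 LADs, quartiles 1.5 and 6.3 kb), against 3.6 kb for the 6747 other autosomal SpG LADs. The SpC LADs next to members were longer than others, with a median of 7.2 kb (490 LADs, quartiles 3.3 and 13.5 kb) against 4.8 kb for the 4758 others.

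**Figure D2:**
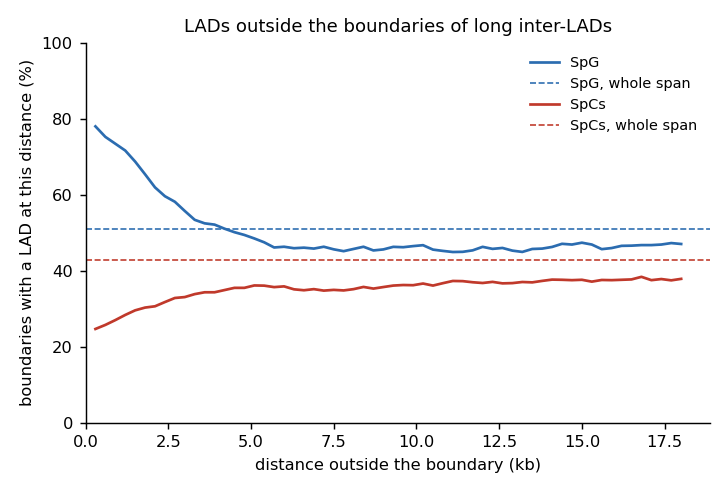
Share of the 2062 boundaries of long inter-LADs (y axis, %) that have a LAD of SpG (blue) or SpCs (red) at a given distance outside the boundary (x axis, kb), with dashed lines at the LAD share of the whole autosomal span (51.0% and 42.7%). From starting values of 78.0% and 24.7%, which restate which stage set the boundaries, the SpG line falls below its dashed line within about 5 kb, and the SpC line stays below its dashed line over the distance shown.

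The long inter-LADs were more often identical with an inter-LAD of SpG than with one of SpCs. Of the 1031, 643 (62.4%) were identical with a gap between SpG LADs, and 86 (8.34%) with a gap between SpC LADs. The SpG gap around a member had a median of 21.0 kb and the SpC gap one of 51.9 kb, which was a median of 2.38 times the member's length and at least 2 times its length for 598 members (58.0%). The members lay in 1015 SpG gaps, of which 14 held more than 1 member. They lay in 724 SpC gaps, of which 208 held more than 1 and together held 515 members. One SpC gap on 2R (chr2R:426901-738600) held 7 members with 280.2 kb among them, one on 3R (chr3R:12652201-12848400) held 7 with 136.2 kb, and one at the centromeric end of 2L, open to the end of the arm, also held 7.

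Within the SpC gaps, 307 stretches separated neighbouring members. They had a median length of 3.9 kb (quartiles 1.8 and 9.45 kb), and 69.6% of their 2.38 Mb was LAD in SpG. Over all members, the distance to the next one had a median of 35.1 kb (1027 pairs, quartiles 8.7 and 101 kb). In 259 pairs (25.2%) a single merged LAD lay between the members, with a median length of 3.0 kb. That LAD was present only in SpG in 183 pairs, only in SpCs in 10 and in both stages in 66. A single bin separated the members in 11 pairs.

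Genes could be placed on dm3 for the first part of 2L, where positions of transcription start sites (TSSs) and the study's gene classes were at hand for 1998 genes up to position 16729777. Placing their TSSs in the SpC LADs gave the same answer as the study's own entry for all 1998 genes. This stretch held 168 of the 1031 long inter-LADs, of which 3.88 Mb lay before that position. They made up 23.2% of its length and held 951 of the 1998 TSSs (47.6%, Wilson 95% interval 45.4% to 49.8%, which covers counting error only, as do all intervals of shares here). TSSs stood at 2.45 per 10 kb in long inter-LADs, compared with 1.01 per 10 kb in shorter inter-LADs, 1.18 in LADs of SpCs only, 0.566 in LADs of SpG only and 0.761 in LADs of both stages. All further statements on genes refer to these 168 regions and 951 genes. Genes of the other arms and of the rest of 2L were not analysed here.

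A long inter-LAD held a median of 4 TSSs (quartiles 2 and 7). Of the 168, 29 held 10 or more, 17 held 1 and 15 held none. Of those 15, 12 lay wholly or partly within the body of a gene that started elsewhere, and 3 held no placed gene at all: chr2L:4660201-4670700 (10.5 kb), chr2L:11710201-11721900 (11.7 kb) and chr2L:13644001-13664700 (20.7 kb). Gene bodies covered a median of 89.2% of a member (quartiles 70.8% and 95.2%). The density of TSSs was lowest in the short members, at 2.01 per 10 kb in the 55 under 15 kb, 2.24 in the 70 from 15 to 25 kb, 2.76 in the 35 from 25 to 50 kb and 2.69 in the 8 longest. Of the 15 without a TSS, 10 were under 15 kb long.

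TSSs were not spread evenly between the boundaries. Their density was 1.07 per 10 kb in the first 5 kb outside the boundaries, 1.96 in the first 5 kb inside and 2.59 between 5 and 10 kb inside. Where a neighbouring member lay that near, its TSSs are part of the count outside, so a TSS can be counted at more than 1 boundary. Ubiquitous genes are a class defined by expression across tissues. Their densities were 0.198, 0.784 and 1.42 per 10 kb. Boundaries set by SpG LADs had 0.987 TSSs per 10 kb just outside and 1.78 just inside, and those set by SpC LADs had 1.35 and 2.48. Inside the members, ubiquitous genes made up 25.4% of the 59 genes within 1 kb of a boundary, 36.9% of the 65 genes between 2 and 3 kb, 54.8% of the 210 genes between 10 and 20 kb, and 48.7% of the 115 genes further in.

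**Figure D3:**
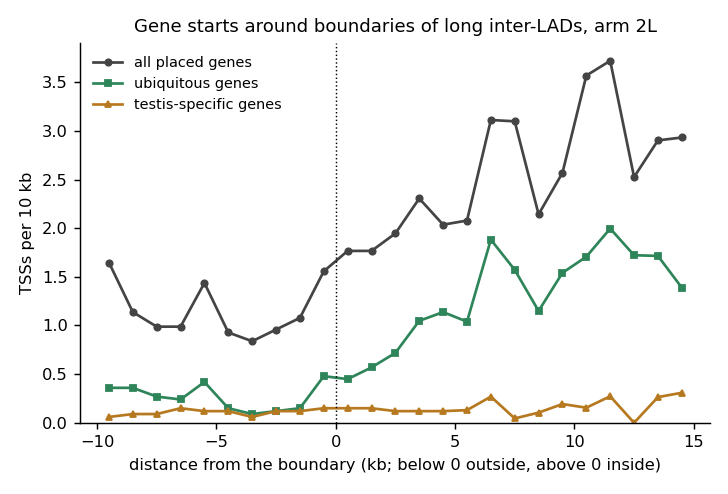
TSSs per 10 kb (y axis) in steps of 1 kb around the boundaries of the long inter-LADs of 2L (x axis, kb, negative outside and positive inside), for all placed genes, ubiquitous genes and testis-specific genes. All placed genes and ubiquitous genes are denser inside than outside, with 1.96 against 1.07 and 0.784 against 0.198 TSSs per 10 kb over 5 kb on either side, while the line of testis-specific genes stays near the bottom on both sides. The outside includes TSSs of a neighbouring member where one lay that near.

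The outermost TSS of a member lay a median of 3.74 kb from the boundary (304 boundaries, quartiles 1.57 and 6.47 kb), and at 50 of them (16.4%) it lay within 1 kb. In the 17 regions with 1 TSS, the same gene was counted at both boundaries, so these boundaries are not all independent. At 201 boundaries (66.1%, interval 60.6% to 71.2%) the outermost gene was transcribed towards the boundary, and at 103 away from it. Both kinds started at like distances, with medians of 3.74 and 3.82 kb. Placing genes by TSS favours the first kind, as a gene that runs across a boundary has its TSS inside only if transcribed outwards. No conclusion on orientation is drawn from this share. Of the 951 genes, 828 (87.1%) lay wholly within their long inter-LAD. The 123 that ran across a boundary were long, with a median of 11.7 kb against 1.96 kb, and were at a median of 5.53 TPM in control testes against 29.8 TPM for the others.

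By the classes of the study, the members were where most ubiquitous genes started. Of the 586 ubiquitous genes placed, 464 (79.2%, interval 75.7% to 82.3%) had their TSS in a long inter-LAD, against 47.6% of all placed genes and 23.8% (56 of 235, interval 18.8% to 29.7%) of testis-specific genes. Testis-specific genes already expressed in SpG stood between, with 24 of 43 (55.8%, interval 41.1% to 69.6%). SpC-specific genes were rarest there, with 32 of 192 (16.7%, interval 12.1% to 22.6%). Of the SpC-specific genes that depend on Aly, a subunit of the testis-specific meiotic arrest complex, 26 of 165 (15.8%) were inside, as were 6 of the 24 that do not. The rule asks for no LAD in either stage, so genes in a LAD of SpG only are not members, whatever their place in SpCs. SpC-specific genes numbered 24 in LADs of SpG only, 26 in LADs of SpCs only and 91 in LADs of both stages. The paper proposes that Aly-dependent genes may keep Dam-Lam methylation from early SpCs after leaving the NL. Ubiquitous genes were 48.8% of the genes in long inter-LADs (interval 45.6% to 52.0%), 32.9% in shorter inter-LADs, 9.83% in LADs of SpG only, 8.70% in LADs of SpCs only and 2.73% in LADs of both stages. At least 1 of them started in 124 of the 168 members (73.8%). The study required a TPM over 1 in these control libraries for the ubiquitous class, and used the same libraries for the testis-specific class, so class and expression level below are not independent.

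Gene families with general functions were mostly inside. All 10 placed mitochondrial ribosomal protein genes started in long inter-LADs, among them mRpS7 (176 ± 4.41 TPM in control testes, mean ± SD, n = 3), mRpL51 (126 ± 9.19 TPM) and mRpS23 (123 ± 13.8 TPM). So did 10 of 13 cytosolic ribosomal protein genes, whose median was 762 TPM, with RpL27A at 1092 ± 77.2 TPM and RpL36A at 901 ± 130 TPM. Of 10 genes for transcription initiation and splicing factors, 7 were inside, among them Taf10b (242 ± 33.7 TPM), TfIIB (154 ± 20.8 TPM) and SmB (57.8 ± 16.0 TPM), which encode a TFIID subunit, a basal initiation factor and a core protein of the spliceosomal snRNPs. All 3 nucleoporin genes (Nup160, Nup107 and Nup154), both aminoacyl-tRNA synthetase genes (ThrRS and AlaRS) and 5 of 6 V-ATPase subunit genes were inside as well. Proteasome subunit genes went the other way, with only Rpn11 (182 ± 17.5 TPM) of 5 inside, 1 in a LAD of SpG only and 3 in LADs of both stages. These lists were drawn up by gene symbol and were not split into ubiquitous and testis-specific genes.

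Families with tissue-restricted functions were mostly outside. Of 27 chemoreceptor and odorant binding protein genes 3 were inside, of 19 seminal fluid protein genes 3, of 12 cytochrome P450 genes 2, of 11 genes for neuronal receptors and cell surface proteins 3, of 10 serpin and Jonah protease genes 3 and of 5 cuticle protein genes 1. Those inside were weakly expressed, the highest being Sfp26Ad, a seminal fluid protein gene, at 15.5 ± 1.90 TPM. The gustatory receptor gene Gr32a was at 4.76 ± 1.82 TPM, the co-receptor gene Ir25a at 1.01 ± 0.157 TPM and the acetylcholine receptor gene nAChRalpha6 at 0.195 ± 0.0866 TPM.

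Genes of long inter-LADs were expressed at a median of 24.7 TPM in control testes, with quartiles of 5.48 and 80.2 TPM. The medians in the 3 control libraries were 26.1, 26.4 and 20.3 TPM, the last of these in replicate 3. All placed genes had medians of 13.4, 13.2 and 11.3 TPM. Genes in shorter inter-LADs were at 16.8, 18.9 and 14.3 TPM, below the long inter-LADs in each library. LADs of SpG only came next, at 3.15 to 3.98 TPM. Genes in LADs of SpCs only had medians of 1.28 to 1.51 TPM and those in LADs of both stages 1.72 to 1.89 TPM. The control libraries of these classes did not overlap each other, but genes are not replicates and no test was made.

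Between the classes of position, the share of genes over 1 TPM differed more than the share over 100 TPM. Of the 951 genes, 862 (90.6%, interval 88.6% to 92.3%) had a mean control TPM over 1, against 79.6% in shorter inter-LADs, 64.2% in LADs of SpG only, 53.1% in LADs of SpCs only and 56.4% in LADs of both stages. In contrast, genes over 100 TPM made up 20.3% in long inter-LADs, 21.8% in shorter inter-LADs, 23.1% in LADs of SpG only, 15.9% in LADs of SpCs only and 21.4% in LADs of both stages. The gene content behind these shares differed, as testis-specific genes were 56 of the 951 genes in long inter-LADs and 94 of the 440 in LADs of both stages. Expression also varied with the distance from the boundary, the median being 5.91 TPM for genes within 1 kb of it, 11.7 TPM from 1 to 2 kb, 11.4 TPM from 2 to 3 kb, 18.9 TPM from 3 to 5 kb, 33.5 TPM from 10 to 20 kb and 29.0 TPM beyond 20 kb. Within classes, ubiquitous genes had medians of 36.6 TPM inside and 27.0 TPM outside long inter-LADs. Testis-specific genes were at 142 TPM inside and 147 TPM outside. As a ratio, though not in TPM, the gap was widest for genes of neither class, at 7.21 TPM inside and 0.836 TPM outside.

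**Figure D4:**
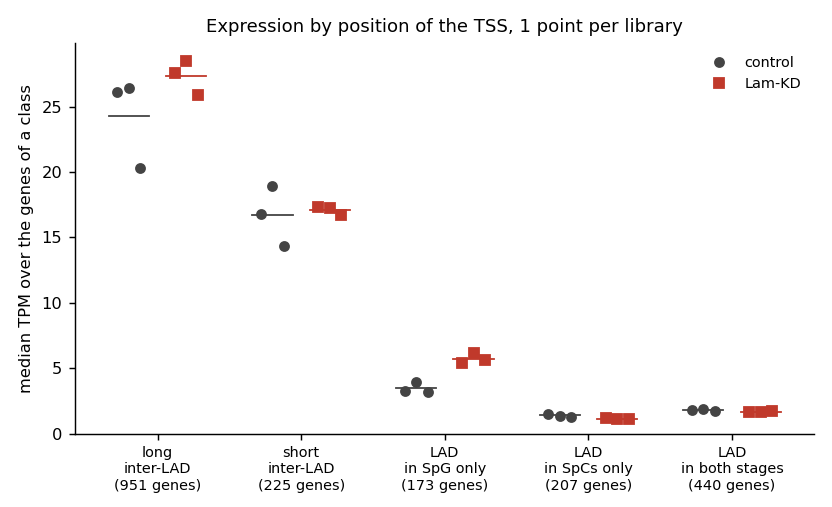
Median TPM (y axis) over the genes whose TSS lies in each class of position (x axis, number of genes in brackets), with 1 point for each control (grey) and Lam-KD (red) library and a line at the mean of 3. In long inter-LADs the control libraries sit at 26.1, 26.4 and 20.3 TPM and the Lam-KD libraries at 27.6, 28.5 and 25.8 TPM, above all other classes.

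Of the 5 genes with the highest levels, 2 encode ribosomal proteins, RpS27A (1327 ± 188 TPM) and RpS13 (1142 ± 199 TPM), and 2 were classed as testis-specific, ProtB (1344 ± 134 TPM) and CG17261 (1175 ± 88.2 TPM). CG9016, the highest with 1616 ± 217 TPM (FBgn0031751, chr2L:5922876-5923653), is in neither class. ProtB (FBgn0013301, chr2L:14882101-14883721) encodes a protamine that packs sperm DNA, is SpC-specific and lay 7.92 kb inside its region. Its near-identical neighbour ProtA, at a mean of 867 TPM, started in the same long inter-LAD, and reads shared between such copies can be split wrongly, so both values are uncertain. RpS27A and RpS13 were lower in control replicate 3 (1114 and 913 TPM) than in the other controls (1473 and 1393 TPM, and 1267 and 1246 TPM). The opposite order was seen for CG9016, ProtB and CG17261, which were highest in that library (1854, 1499 and 1277 TPM).

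The longest inter-LAD (chr2L:10221901-10449000) held 79 TSSs, of which 44 belonged to ubiquitous and none to testis-specific genes. They stood on both strands (42 plus, 37 minus) with few gaps, and gene bodies covered 90.6% of the region. Of the 79 genes, 72 had a mean control TPM over 1, 57 over 10 and 23 over 100, and their median was 51.6 TPM. The medians in the 3 control libraries were 52.8, 55.1 and 48.2 TPM and in the 3 Lam-KD libraries 52.6, 51.6 and 54.4 TPM, which overlap. Signalling genes stood near its left boundary, with chico, the insulin receptor substrate (12.3, 12.6 and 8.74 TPM in the control libraries) and bsk, the Jun kinase (53.0, 50.4 and 47.9 TPM), 25.2 and 28.6 kb from it. The P-body helicase gene me31B was at 225, 227 and 178 TPM, and Utx, which encodes a histone H3K27 demethylase, at 33.7, 37.5 and 28.5 TPM.

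Cell cycle genes stood in the middle and right parts of the region. These were pim, the securin gene (170, 166 and 169 TPM), Cdk1, the mitotic kinase gene (162, 147 and 97.9 TPM), and RnrL, the gene for the large subunit of ribonucleotide reductase (3.71, 4.39 and 3.07 TPM). For replication factor C, RfC3 was at 29.5, 33.1 and 24.3 TPM. Of genes with general functions, RpS27A, mRpS7, SmB, TfIIB and KdelR (178, 169 and 145 TPM) lay 165 to 209 kb from the left boundary. Other genes of the region were near silent in the testis. Ir31a, an ionotropic receptor gene, was at 0.533, 0.168 and 0.147 TPM. Its TSS lay 43.4 kb from the right boundary, next to that of RpS27A, the gene with the highest level in the region, at 40.6 kb. The immunoglobulin superfamily gene dpr19, 154 kb from the left boundary, was at 0, 0 and 0.151 TPM, and trk, 50.4 kb from it, which encodes a ligand of the Torso receptor, at 0.500, 0.951 and 0.560 TPM.

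**Figure D5:**
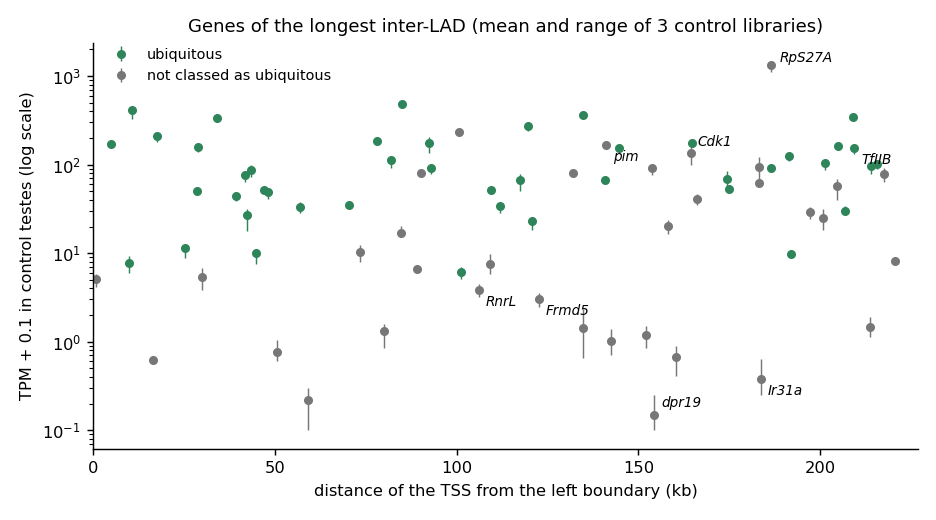
Expression in control testes (y axis, TPM + 0.1, log scale, mean of 3 libraries with their range as a bar) of the 79 genes of the longest inter-LAD against the distance of the TSS from its left boundary (x axis, kb), with ubiquitous genes in green and others in grey. Genes at 100 TPM and more occur along most of the 227.1 kb, the 7 genes under 1 TPM lie between 16.4 and 59.0 kb and between 143 and 184 kb, and the ubiquitous genes are all above 1 TPM, as their definition requires.

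The next longest placed region differed in content. The 85.5 kb of chr2L:15652501-15738000 held 5 TSSs, or 0.585 per 10 kb, and no ubiquitous gene. The uncharacterized gene CG43923 was at 153, 146 and 192 TPM in control testes and CG31780 at 17.6, 19.8 and 18.1 TPM. At 0.0588, 0.115 and 0.304 TPM, stol, the gene of an alpha2-delta calcium channel subunit, was near 0, and CG31827 was at 0.450, 0 and 1.28 TPM. The value of CG44140 varied from 0.854 to 7.07 TPM between the control libraries. The region of rank 3 among those placed, chr2L:13144501-13229100 with 84.6 kb, held 22 TSSs, of which 11 were of ubiquitous genes, such as Ski6, an exosome subunit gene (96.9, 97.4 and 86.4 TPM), and Sfmbt, which encodes a Polycomb group protein (7.95, 8.39 and 6.58 TPM). It also held 4 testis-specific genes: kmg, a zinc finger gene needed in spermatocytes (43.0, 46.2 and 28.0 TPM), Pk34A (92.6, 96.1 and 64.6 TPM), Rsph1, a radial spoke gene (137, 165 and 162 TPM), and CG15482 (153, 155 and 188 TPM).

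Not all genes of long inter-LADs were expressed. The 89 genes (9.36%) with a mean control TPM under 1 were spread over 65 of the 168 regions, and 10 of them had no read in any control library. Their TSSs lay a median of 3.61 kb from the boundary, against 7.21 kb for the expressed genes. For 70 of the 89, the TSS of an expressed gene of the same region lay within 5 kb, and the median distance to it was 2.30 kb. In 88 of the 153 regions with a TSS every gene was over 1 TPM, and in 3 regions none was.

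Knockdown of both lamins changed few genes of the long inter-LADs. Over all genes, 661 of the 10318 tested were called changed, with a Benjamini-Hochberg adjusted p under 0.05 in edgeR's quasi-likelihood test and a mean TPM over 1.5-fold apart. These were 6.41% of the genes tested, 3.19% of them higher and 3.22% lower in Lam-KD. Of the 951 genes of long inter-LADs, 865 had enough reads to be tested. Of these, 27 (3.12%) were called higher and 15 (1.73%) lower, so the share higher was near the background over all genes and the share lower was below it. Of all 1541 placed genes tested, members included, 62 (4.02%) were called higher and 61 (3.96%) lower, and both shares of the members were below these. Genes in shorter inter-LADs were called higher in 15 and lower in 5 of 190 cases (7.89% and 2.63%), and those in LADs of SpG only in 10 and 2 of 123 (8.13% and 1.63%). In LADs of both stages the calls were 7 and 27 of 251 (2.79% and 10.8%), and in LADs of SpCs only 3 and 12 of 110 (2.73% and 10.9%). A share of lower calls below the background was thus not particular to the long inter-LADs. None of the 55 testis-specific genes tested in long inter-LADs was called, and 10 of the 464 ubiquitous genes were called higher and 2 lower. The count of higher genes depended on single libraries. It was 30, 39 and 15 without control replicates 1, 2 and 3, and 11, 11 and 14 without Lam-KD replicates 1, 2 and 3. The count of lower genes lay between 10 and 15 in these fits. Of the 42 genes called, 25 were among the 27 called without control replicate 3. Of the 42, 16 overlapped another placed gene.

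Among the genes that rose, dpr19 had the largest ratio. This gene (FBgn0032233, chr2L:10376168-10379905) lay 72.8 kb inside the longest inter-LAD and had 2 reads in the 3 control libraries together and 179 in the Lam-KD libraries. It was at 3.83, 3.27 and 3.59 TPM in Lam-KD, all above the controls given earlier. The ratio per total reads was 78.0, with an exact interval of 21.3 to 649 that covers counting error only (log2 fold change 5.99, SE 0.52, adjusted p = 4.7e-05 in edgeR's test). CG14022 (FBgn0031700, chr2L:5327975-5328879), whose TSS lay 0.022 kb inside the boundary, was at 0.428, 0 and 0.451 TPM in control and 3.97, 5.42 and 5.42 TPM in Lam-KD. With 2 control and 35 Lam-KD reads, its ratio was 15.3 (exact interval 3.92 to 131, adjusted p = 0.00552 in edgeR's test). The other 3 of the 5 largest were low in all libraries. CG8353 was at 4.99, 2.32 and 4.34 TPM in control and 7.29, 11.7 and 11.9 TPM in Lam-KD (log2 fold change 1.21, SE 0.32). CG16863 was at 3.92, 3.95 and 3.25 TPM in control and 9.58, 9.23 and 8.88 TPM in Lam-KD (1.22, SE 0.13). For sala, 0.671, 0.491 and 0.290 TPM in control stood against 1.87, 1.73 and 1.20 TPM in Lam-KD (1.61, SE 0.39), and CG8353 and sala each overlapped another gene. Of the gene lists above, dpr19 and the TFIID subunit gene Taf11 were the only members called. Taf11 was at 19.5, 21.0 and 16.1 TPM in control and 28.4, 30.6 and 29.5 TPM in Lam-KD (0.56, SE 0.14). Named after their values were seen, zuc, an endonuclease gene of the piRNA pathway, and mre11, a gene of double-strand break repair, rose as well (log2 fold changes 0.92, SE 0.27, and 0.59, SE 0.16).

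The 5 genes with the largest falls were low in control testes too, and their libraries did not overlap between the groups. The clock gene tim (FBgn0014396, chr2L:3493986-3508119) was at 2.71, 2.69 and 2.23 TPM in control and 0.937, 1.24 and 1.07 TPM in Lam-KD (log2 fold change -1.32, SE 0.16, adjusted p = 0.000567 in edgeR's test). Its TSS lay 0.219 kb inside the boundary and its body ran out of the region. Trpgamma, which encodes a TRP channel subunit, was at 1.24, 1.24 and 1.25 TPM in control and 0.517, 0.576 and 0.495 TPM in Lam-KD (-1.34, SE 0.26). AstCC, a neuropeptide gene, was at 5.17, 3.91 and 6.90 TPM in control and 3.41, 1.80 and 1.39 TPM in Lam-KD (-1.37, SE 0.38). The G protein gamma subunit gene Ggamma30A was at 2.30, 1.95 and 2.03 TPM in control and 0.297, 0.773 and 0.367 TPM in Lam-KD, with a fitted log2 fold change of reads of -1.15 (SE 0.20) that was smaller than that of the mean TPM. Frmd5 was the only one of these in the longest inter-LAD, at 3.44, 2.97 and 2.38 TPM in control and 1.14, 1.09 and 1.29 TPM in Lam-KD (-1.40, SE 0.24). In that region RnrL also rose, while CG34367 and rho-5 also fell, so that 5 of its 73 tested genes changed. CG31780 fell in the region of 85.5 kb, and no gene of the region of 84.6 kb was called.

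Short of single calls, 71.0% of the genes of long inter-LADs with a mean control TPM over 1 had a higher mean TPM in Lam-KD, by a median within the spread between the control libraries. The share was 56.9% over all placed genes over this level, 60.9% in shorter inter-LADs, 35.1% in LADs of SpG only, 39.1% in LADs of SpCs only and 23.0% in LADs of both stages. For the 862 genes with a mean control TPM over 1, the median log2 ratio of mean TPM was 0.16, against 0.09 for all 10185 genes of the genome over that level. In single Lam-KD libraries it was 0.14, 0.19 and 0.09 against the mean of the 3 controls. Each control library against the mean of the other controls gave 0.06, 0.17 and -0.28, a wider range than that of the Lam-KD libraries. The median of the members was 0.06 without control replicate 3 and 0.0802 with CPM values scaled by TMM. Among placed genes, the median log2 ratio was 0.10 in shorter inter-LADs, -0.14 in LADs of SpG only, -0.18 in LADs of SpCs only and -0.23 in LADs of both stages. These positions also differed in gene content, with 56 testis-specific genes of 951 in long inter-LADs and 94 of 440 in LADs of both stages. Within long inter-LADs, testis-specific genes had medians of 135 to 140 TPM in control and 122 to 127 TPM in Lam-KD libraries. Ubiquitous genes there had medians of 32.0 to 40.4 and 39.7 to 43.6 TPM, which overlap. The part of gene class in the differences between positions was not tested. TPM values sum to the same total in each library, so they show shifts between genes and no change of the total.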

How the data were processed

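LAD positions and RNA-seq values were used as deposited. For Lam-DamID, the authors mapped unique reads to dm3 with Bowtie2, counted them with HTSeq in bins of 300 bp, merged replicates and took the log2 ratio of Dam-Lam to Dam. A hidden Markov model with LAD and inter-LAD states was then run on these ratios. They deposited 12120 LADs for SpG and 8698 for SpCs as start and end positions, with no score. The authors gave these positions in base pairs, per stage and not per replicate. Lists were merged, and gaps of 10 kb or longer between neighbouring LADs on 2L, 2R, 3L and 3R were kept. A boundary is no more precise than 1 bin.

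Per gene, expected counts of the RNA-seq libraries were deposited by the authors, estimated with Salmon on BDGP5 without normalization, and TPM values from the same estimates, which have the same total in each library. Expected counts were rounded and tested with edgeR 4.0.16 (quasi-likelihood, TMM) in R 4.3.3 for genes with at least 10 reads in at least 3 libraries, with Lam and LamC left out. DESeq2 1.42.0 was an alternative. The replicates are stated to be biological. TSS positions and gene classes of 1998 genes of 2L were taken from the study's gene table, of which a shortened copy was at hand, so no test of overlap was made. Symbols of 1952 of them matched the gene name table, and the others kept the name of the study's table. Only positions and classes, and no expression value, were taken from that table. Promoter sequences and motifs were not analysed here. The marker vas was not analysed here.

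The members, gene lists and tests were chosen with earlier results of these data known. Regions named are the 10 longest, the longest of each arm, the longest with placed genes and those next to the threshold. Genes named are those of the 3 longest placed regions, the 5 highest by control TPM, the 5 largest changes in either direction among called genes without overlap of the libraries, up to 4 of each gene list by control TPM, and others said to be named after their values were seen. The 3 regions without a gene, the SpC gaps with most members and Taf11 were also chosen after their values were seen. ProtA was named as the near copy of ProtB. The test was run on simulated counts that assumed the same spread for every gene and library. Control replicate 3 stood apart in the real counts, so no error rate is drawn from that run. Python 3.11.15, pandas 2.3.3, numpy 2.4.6, scipy 1.17.1 and matplotlib 3.10.9 were used.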

Additional observations from a re-analysis of the deposited data

How the results depend on the processing

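The long inter-LADs rest on 1 LAD list per stage, and neither the spread of LAD positions between replicates nor the part of bins without Dam reads is known. Genes were placed on part of 2L only, at a depth where genes under 1 TPM had few reads.

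With a minimum of 5 kb there were 1972 inter-LADs (33.2% of the span), and with 20 kb 476 (18.1%). Without LADs of 1 bin or under 900 bp, the share of the span was 26.8% and 27.4%, and for the SpG or SpC list alone 31.3% and 47.4%. Boundaries of both stages coincided at 6.01% within 1 bin and at 11.7% within 3 bins. The share of placed genes in long inter-LADs was 41.4% for whole genes, 44.6% for TSSs 1 kb or more inside, 54.8% at 5 kb and 33.2% at 20 kb. The median control TPM was 29.8 for whole genes, and between 22.7 and 26.2 without single control libraries. The share of genes over 1 TPM was 93.0% for whole genes, 91.8% for TSSs 1 kb or more inside, 89.6% at 5 kb and 90.3% to 90.6% without single libraries. Over 0.5 TPM it was 93.5% and over 5 TPM 76.7%. The share of ubiquitous genes stayed within its interval under all 5 alternatives.

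Without the fold threshold, 1305 genes changed, 42 members being higher and 37 lower. Leaving out single libraries gave 328 to 820 changed genes, 11 to 39 members higher and 10 to 15 lower. Of members of gaps over 20 kb, 12 were higher and 11 lower. With DESeq2, 20 members were higher and 15 lower, and 34 of the 42 members were called by both tools. Deviations of same-numbered control and Lam-KD libraries correlated at 0.06, 0.07 and 0.18, and those of differently numbered libraries at -0.16 to 0.11. These ranges overlap, so whether replicate numbers pair the libraries cannot be decided from them. With the replicate number as a block (replicate block) 827 genes were called, against 661 without it, with 33 members higher and 16 lower. The median log2 ratio of members was 0.0802 when CPM values scaled by TMM were used, and between 0.0597 and 0.215 without single libraries, the lowest without control replicate 3. The cause of these shifts was not tested.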
